A study of Mus musculus with 3 samples.

Results

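The Notch genes followed here are 10 of the 19751 genes that could be named on the array: the ligands Jag1, Jag2 and Dll4, the receptors Notch1, Notch2, Notch3 and Notch4, and the target genes Hes1, Hey1 and Heyl. They were chosen by gene symbol, and every probe with such a symbol was kept, which gave 12 probes, each printed as 1 spot. Cells were mouse cavernous endothelial cells, primary cells of C57BL/6 penile erectile tissue, cultured in serum with heparin and vascular endothelial growth factor A. One group had high glucose (30 mmol) with an siRNA against Ninj1 (200 pmol), another had high glucose (30 mmol) alone and the last normal glucose (5 mmol), each for 48 h. Each group is 1 array of total RNA pooled over 3 numbered samples, so no difference has a replicate check, no test was possible, and "higher" and "lower" describe these arrays alone. A control siRNA is not mentioned in the labels of the other groups.

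Notch signalling passes between touching cells. A ligand of the Jagged or Delta-like family on one cell binds a Notch receptor on its neighbour, proteases of the ADAM family and gamma-secretase cut the receptor, and the freed intracellular domain joins the DNA-binding protein RBPJ and Mastermind coactivators to switch on repressors of the Hes and Hey families. In vessels, Dll4, Notch1 and Notch4 are endothelial genes known for restraining tip cells and for arterial identity, Jag1 opposes Dll4 in sprouting, and Notch3 is the receptor of smooth muscle cells and pericytes.

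Ninj1, the gene the siRNA targets, did not follow the labels. Its processed signal was 25539 under the siRNA label, 16291 under high glucose and 20413 under normal glucose, and after scaling it was 0.42 higher (log2) under the siRNA label than under high glucose. File names and slide positions inside the files also disagree with the labels, so the arrays are called siRNA-labelled, HG-labelled (high glucose) and NG-labelled (normal glucose), and the values under other assignments stand in the closing section. No spot was saturated, and 67.0% to 70.6% of 39429 probes were well above background. The endothelial markers Cdh5, Kdr and Egfl7 were above background on every array, while 4 of 17 endothelial markers (Tie1, Emcn, Erg and Sox18) were not well above background on any. By the probe compared, Tek and Cldn5 were not well above background on the siRNA-labelled array, and Sox17 was so on that array alone. Of 13 endothelial markers compared between the siRNA- and HG-labelled arrays, 6 were higher and 7 lower.

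Of the 10 Notch genes, 8 were well above background on all 3 arrays. Signals below are the scanner software's processed signals, unscaled. Differences are of log2 signals after subtraction of each array's 75th percentile (2024, 1729 and 1780 on the siRNA-, HG- and NG-labelled arrays). Spots of repeated probes gave a typical SD for a difference of 2 spots of 0.22 at signals of 20 to 100, 0.09 at 100 to 1000 and 0.07 above 1000. This SD covers spot noise only and leaves out culture and hybridisation error.

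Hes1, Jag2 and Notch4 were higher by 2-fold or more on the siRNA-labelled array than on the HG-labelled array, and Hey1 was 1.56-fold higher. Notch1 and Jag1 were 1.62-fold and 1.55-fold lower, Notch3 1.38-fold lower and Notch2 differed by 1.05-fold. By 1.5-fold or more, 4 were higher and 2 lower, where 30.1% of all genes passed in either direction. Thus 3 of the 8 measured genes were higher by 2-fold or more and 0 lower by 2-fold or more, where 6.51% of all 15628 genes compared were higher and 8.22% lower by that fold. Those shares include bounds, and 876 of the 1018 higher and 1043 of the 1285 lower genes were measured on both arrays. The median of the 8 measured Notch genes was 0.28, with 4 above 0 and 4 below, against 0.01 over all genes compared. With Dll4 included, set to 0 because it gave no fold, the median of 9 genes was 0. In either direction 14.7% of all genes passed 2-fold, and whether the Notch share stands apart from that was not tested.

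**Figure D1:**
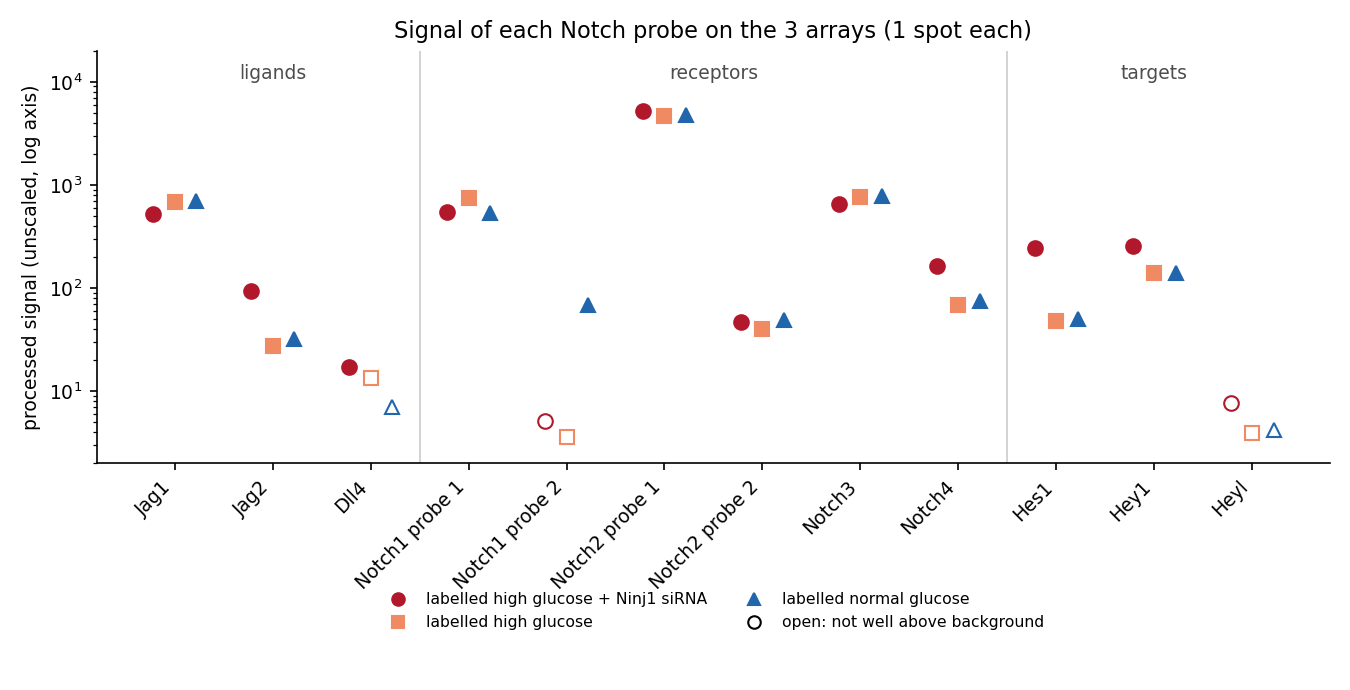
Unscaled processed signal (log axis) of each of the 12 Notch probes on the siRNA-, HG- and NG-labelled arrays, 1 spot per point, with open symbols where a spot was not well above background. Hes1, Jag2, Notch4 and Hey1 had their highest signal on the siRNA-labelled array, and the second Notch1 probe was above background on the NG-labelled array alone.

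Among the ligands, Jag2 and Jag1 differed in opposite directions. Jag2, a Jagged ligand, had a signal of 92.9 on the siRNA-labelled array, 27.1 on the HG-labelled array and 32.1 on the NG-labelled array. The siRNA-labelled array stood above the other two, which differed by less than the typical spot noise at this brightness. Jag2 was 2.93-fold higher on the siRNA-labelled array than on the HG-labelled array (log2 difference 1.55) and 2.55-fold higher than on the NG-labelled array (1.35). Under normexp, a background correction with a constant added to every signal, the first log2 difference was 0.66 and the 2-fold call ended.

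Jag1, the other Jagged ligand, had signals of 518, 686 and 701 on the siRNA-, HG- and NG-labelled arrays. It was lowest on the siRNA-labelled array, with a log2 difference of -0.63 from high glucose and -0.62 from normal glucose, several times the spot noise. Such a difference was common, as 28.8% of 4984 probes within 2-fold of its signal differed at least as far between the siRNA- and HG-labelled arrays. The HG- and NG-labelled arrays differed by 0.01 for Jag1.

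Dll4, the Delta-like ligand of sprouting endothelium, was close to the detection limit. Its signal was 16.9 on the siRNA-labelled array, where it was marked well above background, against 13.3 under the HG label and 7.03 under the NG label, where it was not. The lowest signals well above background were 16.4 and 16.9 on the HG- and NG-labelled arrays, so no fold is given for Dll4. It entered the comparisons only through the array on which it was high. Of 5 further ligands and ligand-like genes, 4 were named on the array and all were measured. Dll1, a Delta-like ligand, had signals of 249.8, 97.8 and 92.3 and was 2.18-fold higher under the siRNA label than under the HG label. Dlk1, a non-canonical ligand, was 1.39-fold lower, Dner 1.17-fold higher and Dll3 differed by 1.03-fold.

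The promoter windows of both Jagged genes are shown because these ligands differed in opposite directions, that of Notch4 because it was higher with Jag2, and that of Hey2, a target gene outside the 10, because it carries the RBPJ letters. The windows run from 250 bases before to 50 after the RefSeq start on GRCm38.p6, 5′ to 3′ on the gene's strand, from RefSeq. Capitals mark TGGGAA, the core bound by RBPJ, and CACGCG, a site bound by Hes and Hey repressors, on either strand.
Jag2 (chr12:112929446-112929745, minus strand): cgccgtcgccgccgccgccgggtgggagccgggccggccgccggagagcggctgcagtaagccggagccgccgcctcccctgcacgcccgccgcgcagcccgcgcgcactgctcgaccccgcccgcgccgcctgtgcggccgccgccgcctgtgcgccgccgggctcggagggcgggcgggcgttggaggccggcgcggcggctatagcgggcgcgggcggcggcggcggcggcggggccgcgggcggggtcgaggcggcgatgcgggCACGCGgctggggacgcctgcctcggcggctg
Jag1 (chr2:137116471-137116770, minus strand): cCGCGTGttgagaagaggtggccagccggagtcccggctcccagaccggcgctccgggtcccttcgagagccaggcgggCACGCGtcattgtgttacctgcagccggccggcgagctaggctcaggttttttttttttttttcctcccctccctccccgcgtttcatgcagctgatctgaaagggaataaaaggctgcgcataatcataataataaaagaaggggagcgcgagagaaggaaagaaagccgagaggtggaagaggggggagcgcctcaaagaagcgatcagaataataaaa
Notch4 (chr17:34564045-34564344, plus strand): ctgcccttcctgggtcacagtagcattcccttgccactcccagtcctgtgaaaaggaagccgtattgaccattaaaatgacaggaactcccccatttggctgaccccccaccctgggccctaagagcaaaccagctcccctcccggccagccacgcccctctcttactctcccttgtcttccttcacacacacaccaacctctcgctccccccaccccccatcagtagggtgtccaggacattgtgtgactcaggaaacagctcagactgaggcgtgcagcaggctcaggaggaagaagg
Hey2 (chr10:30842734-30843033, minus strand): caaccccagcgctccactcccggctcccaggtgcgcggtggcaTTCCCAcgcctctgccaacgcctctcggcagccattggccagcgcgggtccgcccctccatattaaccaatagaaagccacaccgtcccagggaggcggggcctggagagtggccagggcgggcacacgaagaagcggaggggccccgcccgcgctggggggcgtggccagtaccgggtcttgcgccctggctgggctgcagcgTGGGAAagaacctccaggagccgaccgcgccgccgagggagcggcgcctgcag
The RefSeq table matched 7 of the 10 genes, with Hes1, Hey1 and Heyl unmatched. TGGGAA was in 0 of these 7 windows and in 25.6% of all 32851 windows, and the Hey2 window held 2 matches. CACGCG was in 4 of the 7 windows (Jag1, Jag2, Dll4 and Notch2) and in 9.27% of all. The E-box CACGTG was in 0 of the 7 and in 7.15% of all, and the N-box CACNAG, where N is any base, in 4 of the 7 and in 42.5% of all. All searches covered both strands, and none of these motifs contains another. The Jag2 window had a GC content of 86.0%, against 55.7% for Jag1 and 58.3% for Notch4. These matches are letters in short windows and were not tested for binding.

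Among the receptors, Notch4 was higher on the siRNA-labelled array and Notch1 and Notch3 were lower. Notch4, an endothelial receptor, had a signal of 161.6 there, 68.3 under the HG label and 74.2 under the NG label. It stood 2.02-fold above the HG-labelled array (log2 difference 1.01) and 1.91-fold above the NG-labelled array, which places it at the 2-fold threshold within spot noise. With normexp its log2 difference from high glucose was 0.47 and the 2-fold call ended.

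Notch3, the mural cell receptor, had signals of 647, 762 and 773 on the siRNA-, HG- and NG-labelled arrays. It was lower on the siRNA-labelled array by a log2 difference of -0.46 from high glucose and -0.44 from normal glucose, and the other arrays differed by 0.02. Notch2, a receptor of many cell types, had signals of 5172, 4662 and 4806 on its brighter probe, a log2 difference of -0.08 between the siRNA- and HG-labelled arrays. Its dimmer probe read 46.2, 40.0 and 49.0, a difference of -0.02, so the probes differed by less than spot noise in this comparison.

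Notch1, the receptor that answers Dll4 in endothelium, had probes that disagreed between the HG- and NG-labelled arrays. Its brighter probe had signals of 541, 750.5 and 531 on the siRNA-, HG- and NG-labelled arrays. The HG-labelled array was highest, and the other two differed by -0.16 on the log2 scale. This probe was 1.45-fold higher under the HG label than under the NG label (0.54), and 1.62-fold lower on the siRNA-labelled array than on the HG-labelled one (-0.70). Of 4982 probes within 2-fold of its signal that were measured on both arrays, 0.401% differed at least as far between the HG- and NG-labelled arrays.

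The other Notch1 probe, made to the same transcript accession, went the opposite way. Its signals were 5.06 on the siRNA-labelled array, 3.57 on the HG-labelled array and 68.2 on the NG-labelled array, and it was well above background on the last alone. It was at least 4.05-fold lower under the HG label and at least 6.63-fold lower on the siRNA-labelled array, each against the NG-labelled one. The probes of Notch1 gave opposite directions for the HG-labelled against the NG-labelled array, each from a single spot, and no direction is stated for the gene. Their mean, with the bound included, was -0.74 on the log2 scale.

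**Figure D2:**
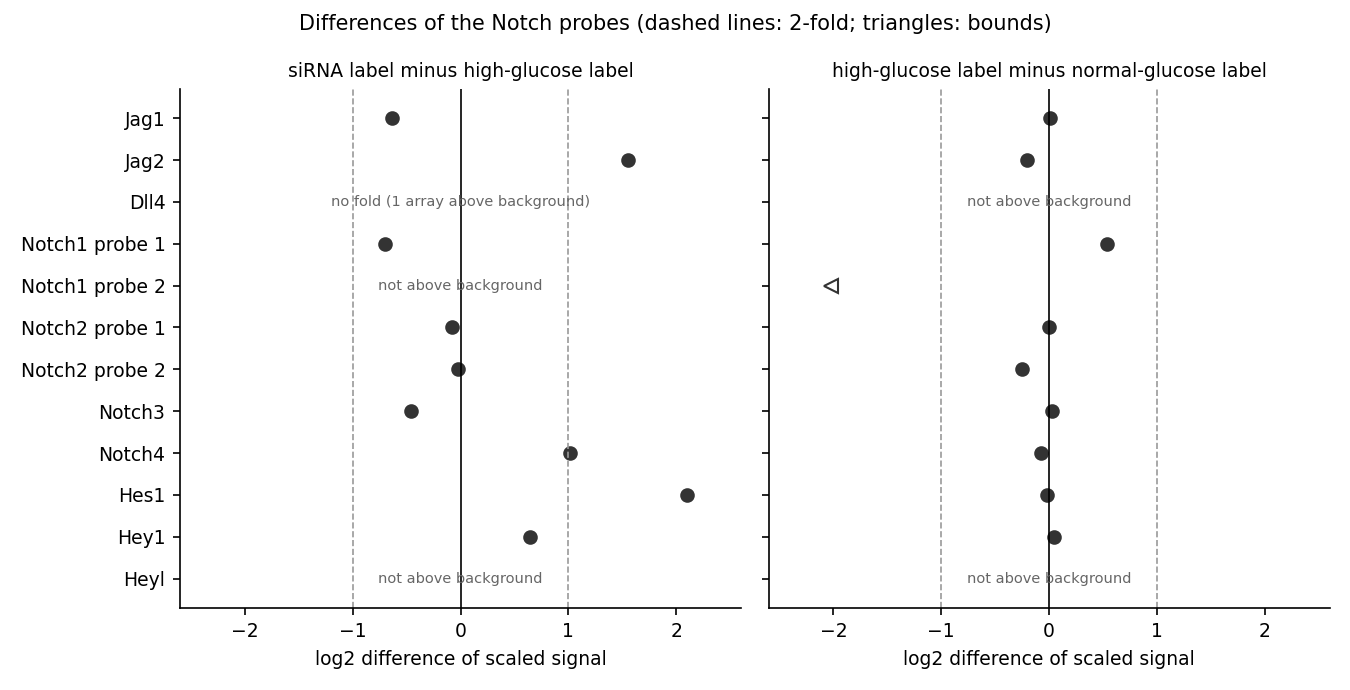
Log2 differences of scaled signal for each Notch probe between the siRNA- and HG-labelled arrays (left) and the HG- and NG-labelled arrays (right), with dashed lines at 2-fold and open triangles for bounds. On the right the brighter Notch1 probe lies at 0.54, the dimmer Notch2 probe at -0.25 and Jag2 at -0.20, while the other Notch1 probe is a bound of -2.02.

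Both target genes that could be measured were higher on the siRNA-labelled array. Hes1, a repressor that most cells induce through Notch and other signals, had a signal of 240.9 there, 48.1 under the HG label and 50.2 under the NG label. The siRNA-labelled array stood far above the other two, which differed by -0.02 on the log2 scale. Hes1 was 4.28-fold higher under the siRNA label than under the HG label (2.10) and 4.22-fold higher than under the NG label (2.08). Among 25950 probes measured on the siRNA- and HG-labelled arrays, 1.89% differed at least as far, as did 2.75% of 5046 probes within 2-fold of its signal. The latter share, each among probes near the gene's own signal, was larger for the other Notch genes. It was 6.06% for Jag2, 15.6% for Notch4, 25.2% for the brighter Notch1 probe and 28.8% for Jag1. For Hey1 it was 30.8%, for Notch3 39.2% and for the brighter Notch2 probe 85.3%. With normexp the log2 difference was 1.26, still past 2-fold.

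Hey1, a helix-loop-helix repressor induced by Notch in endothelium, had signals of 252.2, 138.2 and 138.0 on the siRNA-, HG- and NG-labelled arrays. It was 1.56-fold higher under the siRNA label than under the HG label and 1.61-fold higher than under the NG label, beyond the typical spot noise, and the last 2 arrays differed by 0.04 on the log2 scale. Heyl, a Hey relative of smooth muscle, had signals of 7.56, 3.90 and 4.16, none of them marked well above background, and gave no fold. Each target rests on 1 probe.

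Other genes listed as targets were mostly within 1.5-fold, and whether each depends on Notch in these cells was not tested. Of 11 listed, 7 could be compared between the siRNA- and HG-labelled arrays, and 2 of these were higher by 1.5-fold or more and 0 lower by 1.5-fold or more, where 14.3% and 15.8% of all genes passed that fold. Bhlhe40, a repressor that answers many stimuli, was 1.93-fold higher and Id3, an inhibitor of helix-loop-helix factors, 1.64-fold higher. Hes6 and Hes7 differed by 1.00-fold and 1.20-fold, and Hes2 was 1.31-fold lower. Hes3, Hes5, Hey2 and Nrarp, the last a feedback inhibitor of Notch, were not well above background on any array.

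The 63 named pathway genes outside the 10 lay on both sides of 0. Of 58 compared between the siRNA- and HG-labelled arrays, 1 was higher by 2-fold or more and 3 lower by 2-fold or more, where 6.51% of all genes were higher and 8.22% lower, with a median of -0.11. Maml2, a Mastermind coactivator, had signals of 357, 833 and 790 on the siRNA-, HG- and NG-labelled arrays and was 2.73-fold lower on the siRNA-labelled array than on the HG-labelled one, with its dimmer probe at -1.32 on the log2 scale. Rbpj itself differed by -0.10 on its brighter probe and 0.19 on the other, and Maml1 was 1.35-fold higher. Tle2, a Groucho corepressor, was 2.09-fold lower and Dtx3l, a Deltex-family ubiquitin ligase also known from interferon responses, 2.15-fold lower, with Dtx4 at 1.63-fold lower.

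Of 8 measured cleavage genes, 0 passed 2-fold between the siRNA- and HG-labelled arrays, where 14.7% of all genes did. Adam17, a shedding protease, was 1.77-fold lower on its brighter probe and -0.77 on the log2 scale on the other, whereas Adam10, the main protease of ligand-bound Notch, was 1.12-fold higher. The gamma-secretase genes Psen2, Ncstn and Aph1a were 1.28-fold, 1.31-fold and 1.19-fold lower, and Psenen 1.06-fold higher. The probes of Aph1b gave 0.11 and -0.13 on the log2 scale. Among ubiquitin ligases that activate ligands, Neurl1a was 1.78-fold higher, with 0.83 and 0.82 on the log2 scale from its probes, and Mib1 1.36-fold higher. The Fringe gene Mfng, whose product adds sugars to Notch, was 1.58-fold higher on its brighter probe, but its other probe, well above background on the HG-labelled array alone, was at least 3.72-fold lower.

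**Figure D3:**
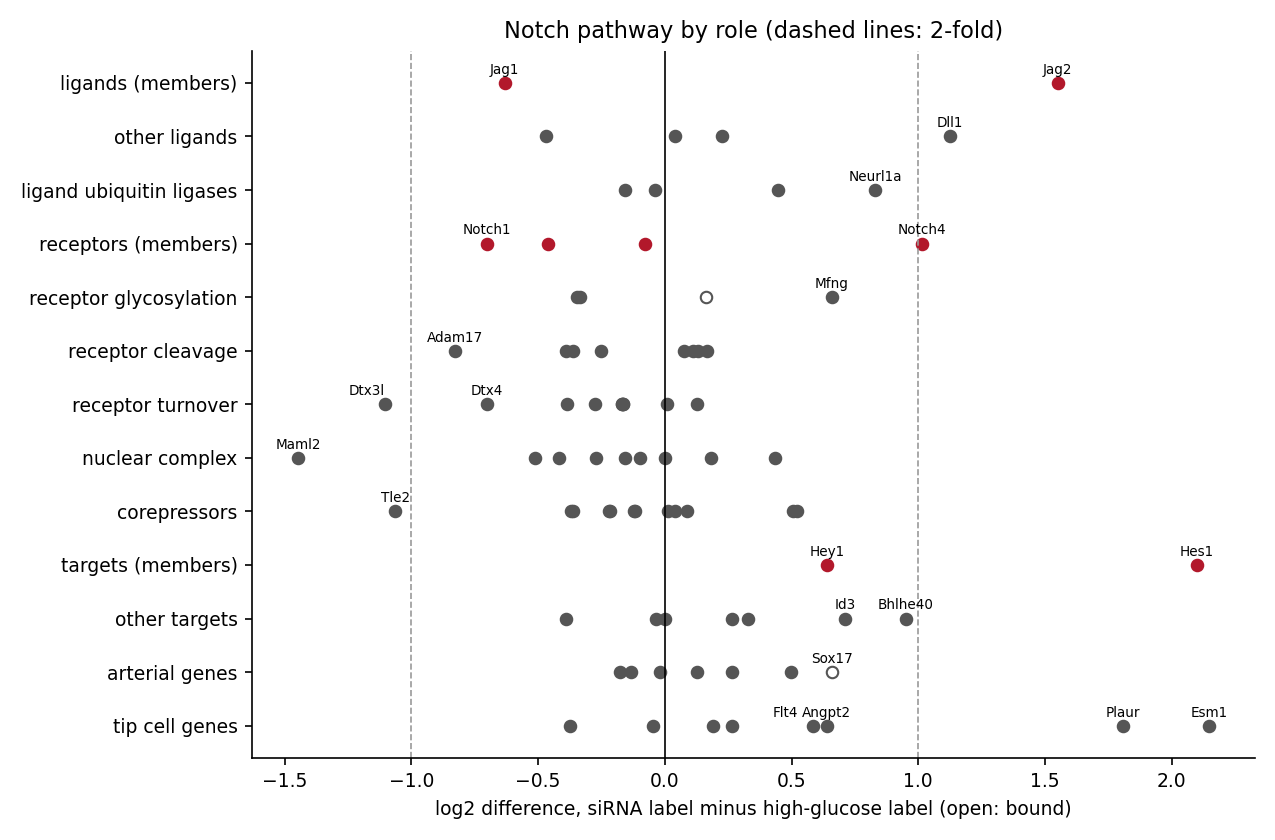
Log2 difference between the siRNA- and HG-labelled arrays for each gene of the Notch pathway that gave a fold, by role, with the chosen genes in red, open symbols for bounds and dashed lines at 2-fold. Dll4, Heyl and the arterial gene Cxcr4 gave no fold and are not drawn. Genes at least 1.5-fold apart are named. Hes1 lies farthest to the right among the chosen genes and Maml2 farthest to the left among the pathway roles.

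Genes that Notch is known to affect in endothelium were examined beside the targets. Of 8 arterial genes compared, 0 passed 2-fold between the siRNA- and HG-labelled arrays, where 14.7% of all genes did. One of them, Cxcr4, was well above background on the siRNA-labelled array alone, gave no fold and was set to 0. Efnb2, the arterial ephrin ligand, had a fold of 1.09 from its brighter probe and of 2.26 from its dimmer one, both higher. Gja4, an arterial connexin, was 1.41-fold higher. Sox17, an arterial transcription factor, was well above background on the siRNA-labelled array alone, with a bound of at least 1.58-fold higher. Like Dll4 and Cxcr4, Sox17 entered the comparison only through the array on which it was high. Of 8 tip cell genes, 2 were higher by 2-fold or more, namely Esm1 at 4.43-fold and Plaur, the urokinase receptor, at 3.50-fold, where 6.51% of all genes were higher by that fold. Angpt2, which destabilises vessels, was 1.56-fold higher, Flt4 higher by 0.59 on the log2 scale, Apln 1.14-fold higher and Pdgfb 1.30-fold lower. Kdr, the main receptor of vascular endothelial growth factor, differed by -0.05 on the log2 scale on its brighter probe and 0.45 on the other.

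Marker genes of cell types moved between the same arrays. Of 13 endothelial markers compared, 3 were higher by 2-fold or more (Sox7, Cdh5 and Esam) and 4 lower by 2-fold or more (Tek, Vwf, Robo4 and Cldn5) on the siRNA-labelled array than on the HG-labelled one. Tek and Cldn5 were bounds, at least 3.81-fold and 2.12-fold lower, and were not well above background on the siRNA-labelled array. They entered this comparison only through the array on which they were high. Over all genes compared, 6.51% were higher and 8.22% lower by that fold, the shares to set beside each marker count here. The other lists had 11 smooth muscle and pericyte, 12 fibroblast, 7 macrophage and 4 epithelial markers compared. Summed over 17 endothelial markers, the signal was 8.74, 7.91 and 7.81 times the array's 75th percentile on the siRNA-, HG- and NG-labelled arrays. Such sums are set by a few bright probes, here Kdr and Egfl7, with signals of 8278 and 5967 on the siRNA-labelled array out of a sum of 17690. For 12 smooth muscle and pericyte markers the sum was 32.6, 59.3 and 58.6, with 1 higher by 2-fold or more and 4 lower by 2-fold or more, and Myh11 not above background on any array. For 12 fibroblast markers it was 511, 709 and 707, with 0 higher by 2-fold or more and 6 lower by 2-fold or more. Macrophage markers (7 named) summed to 20.0, 18.6 and 19.2, with 1 higher and 3 lower by 2-fold, and epithelial markers (8 named, with Epcam, Cdh1, Krt8 and Cldn4 not above background) to 1.74, 2.10 and 2.14, with 1 higher and 0 lower. In RNA of a whole culture, fewer cells of a type and less RNA per cell cannot be told apart, and the part of cell makeup in the Notch differences was not tested.

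Between the HG- and NG-labelled arrays, Notch genes represented by their brightest probe differed by less than 2-fold. With the arrays assigned by file name, 2 Notch genes were higher by 2-fold or more in this comparison and 0 lower. By slide position, 0 were higher and 2 lower by that fold. Under either assignment 14.3% of 15584 genes passed 2-fold in either direction. As labelled, of 8 genes measured, 0 passed 2-fold or 1.5-fold, where 1.51% and 2.77% of 15085 genes did in either direction. Lower by those folds were 0.696% and 1.25%. These shares include bounds, and 68 of the 228 genes past 2-fold and 170 of the 418 past 1.5-fold were measured on both arrays. The log2 differences of the 8 Notch genes ran from -0.20 for Jag2 to 0.54 for Notch1. Apart from these, the other 6 lay between -0.08 and 0.04. Of 58 other pathway genes, 1 passed 2-fold, namely Lfng, a Fringe gene, which was at least 3.01-fold lower under the HG label, from signals of 7.10 there and 50.7 under the NG label. Lfng had a signal of 21.5 under the siRNA label, was well above background on the siRNA- and NG-labelled arrays, and rests on 1 spot per array.

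**Figure D4:**
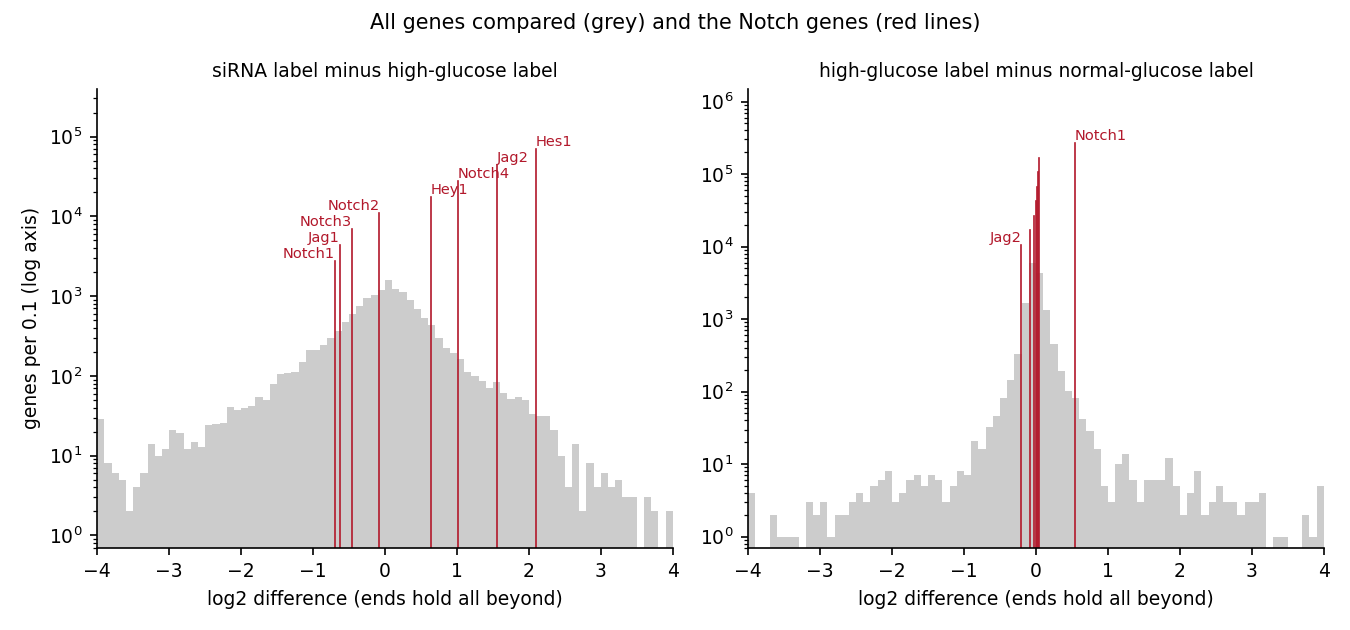
Number of genes per 0.1 of log2 difference (log axis) for all genes compared, between the siRNA- and HG-labelled arrays (left) and the HG- and NG-labelled arrays (right), with red lines at the measured Notch genes. The Notch genes spread from -0.70 to 2.10 on the left and from -0.20 to 0.54 on the right.

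Set against the NG-labelled array, which shares its siRNA-labelled array with the first comparison, 2 of 8 Notch genes were higher by 2-fold or more under the siRNA label (Hes1 and Jag2) and 0 lower, where 6.35% of 15584 genes were higher and 7.94% lower. Bounds are included there, and 842 of the 990 higher and 1016 of the 1238 lower genes were measured on both arrays. By 1.5-fold or more, 4 Notch genes were higher and 1 lower, against 13.8% higher, 15.4% lower and 29.2% in either direction over all genes. With the mean over the probes of a gene, Notch1 was at -1.44 against the NG-labelled array and 1 Notch gene was lower by 2-fold or more. Side by side with the values against high glucose, Notch4 was at 0.94 and 1.01, Hey1 at 0.68 and 0.64, Jag1 at -0.62 and -0.63, Notch3 at -0.44 and -0.46 and the brighter probe of Notch1 at -0.16 and -0.70 on the log2 scale.

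**Figure D5:**
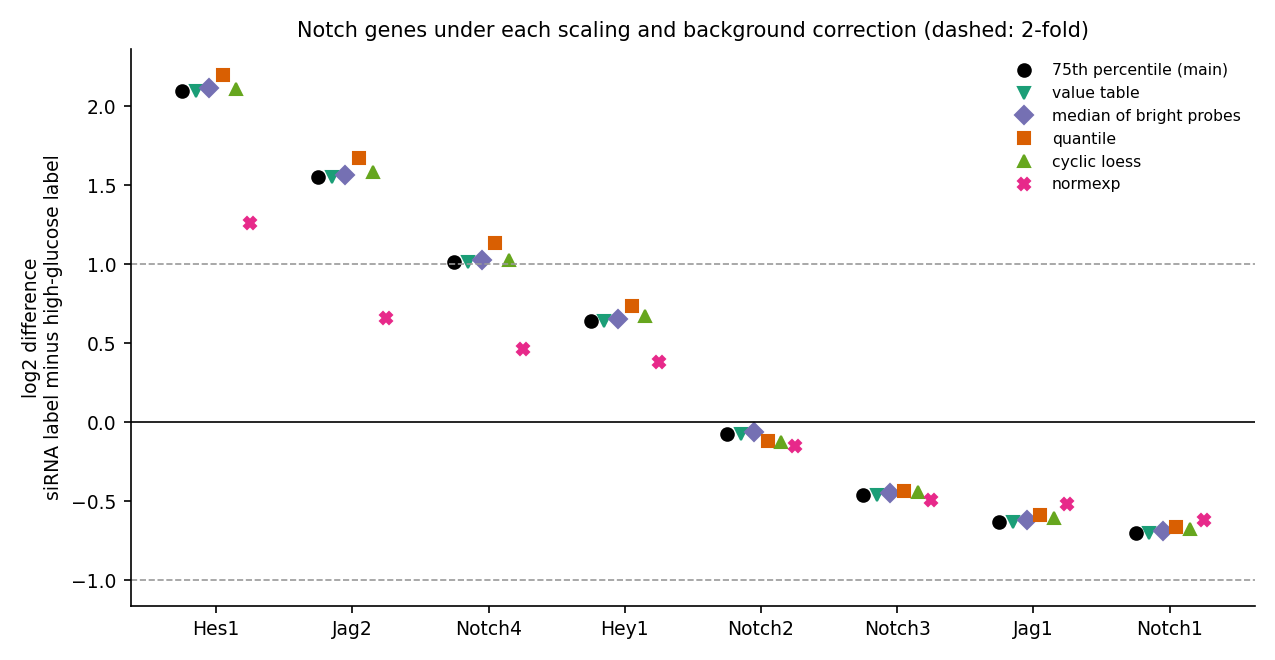
Log2 difference between the siRNA- and HG-labelled arrays for the 8 measured Notch genes under the main scaling and 5 other treatments of the signal, with dashed lines at 2-fold. Directions were the same under all 6, and normexp moved Jag2 to 0.66 and Notch4 to 0.47, inside the lines.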

How the data were processed

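Total RNA of 3 groups, each pooled over 3 numbered samples, was hybridised to 3 arrays of 1 slide in a single colour (Cy3), per the labels. The deposited scanner files give intensity per spot after background subtraction. Their headers name Agilent Feature Extraction 11.0.1.1 and annotation on mm9. The deposited value table holds linear intensity equal to each array's processed signal within 0.1% for 100% of 39030 single-spot probes. Its column medians were 129, 118 and 118 for the siRNA, high-glucose and normal-glucose labels. How it combined repeated spots is unknown.

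Spots marked as outliers (107, 147 and 109, in the same order) were left out. The log2 signal was averaged over spots and each array's 75th percentile subtracted. Where 50% or more of its spots carried the scanner software's flag for signal well above background, a probe was taken as well above background. Probes were named through unversioned accessions in the RefSeq gene table of GRCm38.p6 (26055 of 39429 probes). The brightest probe above background on either array stood for a gene. Where 1 array of a pair was not above background, the difference is a bound, taken against that array's lowest value above background or the dim probe's own value if higher. Leaving out an array or a batch term was not possible with 1 array per group. Normexp was run by limma 3.58.1 with an offset of 50 on median spot signals, since the deposited scanner output carries median and not mean spot signals. The steps were tested on simulated data with less noise than spots at signals of 20 to 100 had here, and without bounds.

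The Notch genes, the other lists and the rules were chosen with earlier results of these data known. All 10 Notch genes are named. From the other pathway lists the rule took up to 3 genes at least 1.5-fold apart between the siRNA and high-glucose labels, plus Rbpj, Ninj1 and up to 3 markers per cell type. Other pathway genes printed were added after their values were seen, to fill out each role.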

Additional observations from a re-analysis of the deposited data

How the results depend on the processing

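Each group is 1 array, so no array could be left out, and no paired analysis was possible because each group has 1 pooled library. Assignment by slide position and a minimum mean signal of 100 were chosen after seeing the data. Counts are of genes past 2-fold in either direction, for the Notch genes, all genes and the 58 other pathway genes in turn. Unless named, the cause of a change was not tested.

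For the siRNA label against high glucose (3, 2303 and 4), normexp gave 1, 1402 and 2, and a mean signal of at least 100 (from the mean of log2 signals over arrays) gave 0 Notch genes and 1516 of all, because that filter leaves out Hes1, Jag2 and Notch4. At 1.5-fold the counts were 6, 4699 and 10, and at 3-fold 1, 935 and 0. Assignment by slide position gave 0, 228 and 1. For high glucose against normal glucose (0, 228 and 1), normexp gave 76 of all and 0 pathway genes. Other values for all genes were 762 with no filter on dim probes, 418 at 1.5-fold, 61 with probes above background on every array and 8 at a mean signal of at least 100, and the filters giving 61 and 8 left 0 pathway genes. For the siRNA label against normal glucose (2, 2228 and 5), normexp gave 1, 1374 and 2, a mean signal of at least 100 gave 0 Notch genes and 1482 of all, 1.5-fold gave 5, 4555 and 11, and 3-fold gave 1, 902 and 0.

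Directions between the siRNA and high-glucose labels turn with the assignment of arrays. Ninj1 was 0.42 as labelled, -0.42 with the high-glucose arrays exchanged (as the file names have it) and -0.28 by slide position. The brighter Notch1 probe was 0.54 as labelled for high minus normal glucose, against -0.16 and 0.16 under these assignments. With the high-glucose arrays exchanged, the siRNA label minus high glucose was -1.55 for Jag2, -1.01 for Notch4 and -2.10 for Hes1. By slide position the siRNA label minus high glucose was -0.20 for Jag2, -0.078 for Notch4 and -0.021 for Hes1. Against normal glucose, Jag2 and Hes1 were -0.20 and -0.021 with the arrays exchanged and -1.55 and -2.10 by slide position. Both assignments gave 2, 2228 and 5 genes for high glucose against normal glucose, and exchange gave 0, 228 and 1 for the siRNA label against normal glucose. Under the main scaling and 5 other treatments of the signal, the 8 measured Notch genes kept their direction between the siRNA and high-glucose labels, with Hes1 from 1.26 to 2.20. The lowest signals above background were 11.7, 16.4 and 16.9 under the siRNA, high-glucose and normal-glucose labels, which leaves Dll4 and Heyl without a fold.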
